A study of Petromyzon marinus with 2 samples.

Results

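The cells described here are PRDM13 cells of the GAD1-positive neurons of the adult sea lamprey retina. A barcode was taken as a member with at least 2000 UMIs (unique molecular identifiers, which count each captured transcript once), a UMI of GAD1 and 2 or more of PRDM13. It also had 0 UMIs of SLC6A9 and SLC6A5, at most 1 each of CHAT and CRHBP, and at most 1 each of TMEM121, PDE11A, NR4A2, SOHLH2, RXFP1 and RBPMS. The gate found 289 of 28891 barcodes, 106 in replicate 1 and 183 in replicate 2. The members were thus selected on the UMIs of these 12 genes, which are given as a description and were not tested.

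Retinas of adult sea lamprey (Petromyzon marinus), with no treatment or mutation, were dissociated with papain and sequenced as single cells captured in droplets, as 2 biological replicates of 1 library each. The sample labels name a sort by flow cytometry after dissociation and the study's methods describe none, so whether the shares of cells below were set in part by a sort is not known. How many animals went into each library is not given in the sources used here. The comparison group was the 6741 GAD1-positive cells that passed the same limits on depth, SLC6A9, SLC6A5, CHAT and CRHBP and had 0 UMIs of PRDM13, with 2366 in replicate 1 and 4375 in replicate 2. Groups of cells from 1 library share their droplets and free RNA. The p-values rest only on how differences between cell groups varied between these 2 libraries, a spread pooled wholly or in part over genes.

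PRDM13 belongs to the PRDM family of zinc finger regulators of transcription. In mouse it acts downstream of PTF1A in the developing retina and spinal cord, where it favours inhibitory neurons, and in the mouse retina it is known from amacrine cells. GAD1 encodes an enzyme that makes GABA from glutamate, SLC32A1 loads GABA into synaptic vesicles, and SLC6A9 and SLC6A5 take up glycine. The study places PRDM13 among the marker genes of a subgroup of lamprey retinal ganglion cells, the neurons that send their axons to the brain.

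The libraries held 12933 and 15958 barcodes and 87882951 and 117426390 UMIs. They shared 83 barcode sequences, 1 of them among members. Members had a median of 6659.5 and 7300 UMIs per cell in replicates 1 and 2, and comparison cells had 7752.5 and 6630. Summed over cells, members held 841533 and 1532774 UMIs, and comparison cells 23009057 and 36824430. Levels below are CPM, these sums scaled to 1000000 UMIs, by library. No doublets were called or removed, and the deepest members had 21591 and 55267 UMIs. Of the 24979 genes, 8013 had a symbol, and these took 37.7% of the UMIs. PRDM13 is listed as MSTRG.11350 and was named, like SOHLH2, through the gene ID of a reference table. FOXP1 and KCNK12, named by the study with DRD2 for its PRDM13 subgroup, were not matched to a gene and were not analysed here.

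PRDM13 cells made up 3.62% (95% exact binomial interval 2.98 to 4.37) of the 2925 GAD1-positive cells of replicate 1 and 3.55% (3.06 to 4.09) of the 5161 of replicate 2. The intervals cover counting error only, and the shares of the libraries lay within each other's interval. With every cell thinned to 2000 UMIs before the gate they did not, at 2.12% (1.70 to 2.63) and 1.56% (1.26 to 1.91). The share depends on the number of PRDM13 UMIs asked for: it was 7.02% over both libraries with at least 1 UMI and 1.94% with at least 3. Just inside the threshold, 132 members had 2 UMIs of PRDM13, 68 had 3 and 37 had 4, and the highest count was 14. Just outside it, 101 and 178 cells of the 2 libraries passed every other limit with 1 UMI.

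Most cells with PRDM13 failed another limit of the gate. With 2 or more UMIs of PRDM13 there were 2007 and 2115 barcodes in the libraries. Of these, 1971 and 2073 reached the depth limit, 1385 and 1561 also had GAD1, and 714 and 818 had no UMI of a glycine transporter. The limits on CHAT and CRHBP left 336 and 441. Of those, 230 and 258 were set aside for 2 or more UMIs of another marker. In 368 of these 488 cells RXFP1, a receptor for the hormone relaxin, was such a marker. GAD1 stood at 1979 and 2151 CPM in members, against 6307 and 5193 CPM in the cells set aside, where RXFP1 stood at 1736 and 1162 CPM.

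By construction PRDM13 stood at 455 and 377 CPM in members and at 0 in comparison cells. Glia-like cells, taken as a measure of free RNA (HES1, at least 5 UMIs of GLUL, and no GAD1 or SLC32A1), showed 1.2 and 3.9 CPM. A UMI of PRDM13 was present in 2.5% of these 201 cells, at a median of 13623 UMIs per cell. Because they had to lack GAD1 and SLC32A1, they may understate the free RNA of neurons and cannot measure that of those genes. A UMI of GAD1 was present in 6835 of 8915 and 10187 of 13216 barcodes with at least 2000 UMIs. ELAVL4, an RNA-binding protein of neurons, was detected in 98.3% of members and 85.7% of comparison cells, and in 83.0% and 71.9% after thinning every cell to 2000 UMIs. In level ELAVL4 was lower in members, at 1042 and 1139 CPM, against 1415 and 1324 CPM in comparison cells. The log2 fold change of -0.30 is under the 2-fold limit. Of the other 7 neuronal markers listed, none was matched to a gene.

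Against other GAD1-positive cells, the PRDM13 cells of this gate had more RNA of CA8, CHRM4, DRD2, TSHZ1, SNTG2 and TRHDE, and less of DAPK1, CALB2.1 and LTK. Of 14873 genes tested (edgeR's quasi-likelihood F-test, p-values adjusted after Benjamini and Hochberg), 415 were called higher (2.79%) and 1102 lower (7.41%) at an adjusted p under 0.05 and a 2-fold difference. The median log2 fold change of all genes tested was -0.04. The fit has 1 residual degree of freedom and gave every gene a common spread, so its p-values rest on the spread shared by all genes. Without the library as a term it called 232 higher and 321 lower. The 15 named genes of largest fold among those higher had adjusted p up to 1.9e-08, and the 9 lower up to 6.3e-13.

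**Figure D1:**
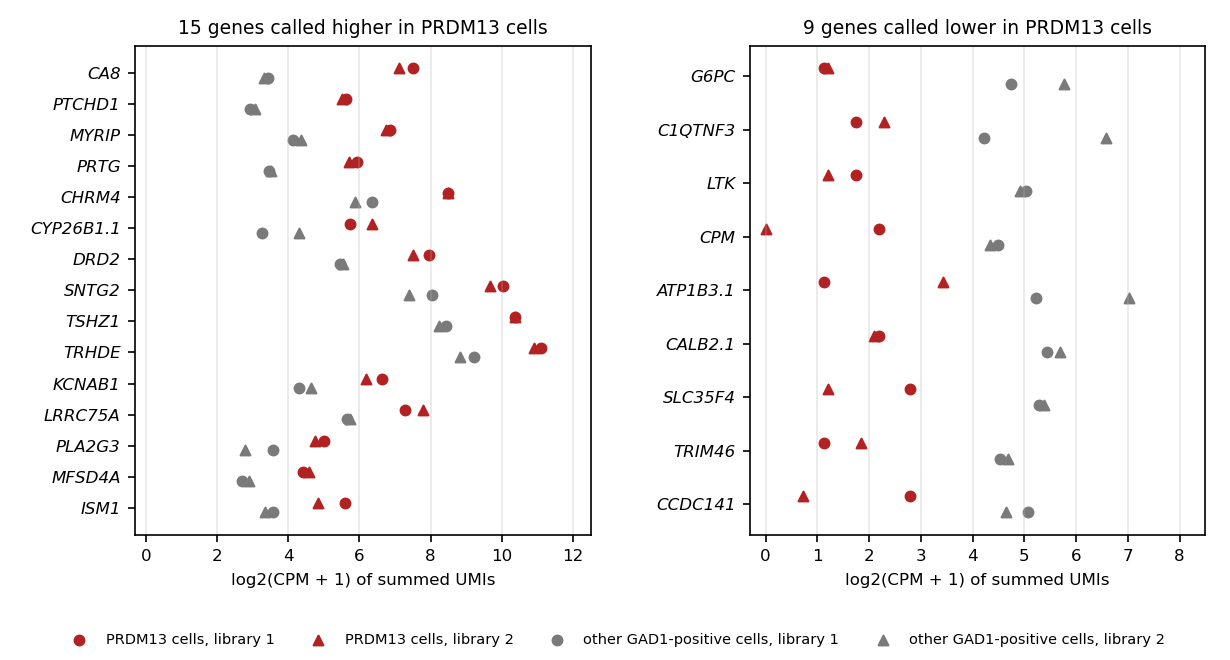
Levels of the 15 named genes called higher and the 9 called lower in PRDM13 cells, as log2(CPM + 1) of UMIs summed per library. Red symbols are PRDM13 cells and grey symbols other GAD1-positive cells, with a circle for library 1 and a triangle for library 2; red and grey do not overlap for any gene shown.

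CA8, a carbonic anhydrase-like protein without enzymatic activity that binds the IP3 receptor in mammals, showed the largest fold among the named genes called higher. It stood at 179 and 138 CPM in PRDM13 cells, against 9.8 and 9.0 CPM in comparison cells, a log2 fold change of 4.08 ± 0.15 (SE). After thinning every cell to 2000 UMIs it was detected in 22.5% of members, in 1.9% of comparison cells and in 0.50% of glia-like cells. Both libraries of members lay above both of the comparison.

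Receptors for acetylcholine and dopamine were among the genes that rose. CHRM4, the M4 muscarinic acetylcholine receptor, stood at 356 and 357 CPM in PRDM13 cells, against 81.4 and 57.8 CPM in comparison cells (log2 fold change 2.42 ± 0.12, SE). DRD2, the D2 dopamine receptor, stood at 248 and 179 CPM, against 42.5 and 45.4 CPM in comparison cells (2.28 ± 0.12). DRD2 was picked on these libraries as a subgroup marker, so its direction is no independent evidence. Thinned to 2000 UMIs, 39.1% of members and 11.1% of comparison cells had a UMI of CHRM4, and 33.9% and 8.1% had one of DRD2. Glia-like cells had 0.50% and 1.0%.

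Of the acetylcholine receptor list, 3 of 8 genes tested rose and 1 fell, with a median log2 fold change of 0.72. Over all genes tested, 2.79% were called higher and 7.41% lower, the shares to set beside this and each list count below. CHRNA2, a nicotinic receptor subunit, was at 782 and 613 CPM in members, against 221 and 185 CPM in comparison cells. CHRNA5, another subunit, was at 195 and 253 CPM, against 91.3 and 103 CPM. The gene that fell was CHRNG, at 4.8 and 6.5 CPM in members, against 3.2 and 30.4 CPM in comparison cells. Its direction differed between the libraries.

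Of 3 glutamate receptor genes tested, 2 rose. GRM8, a metabotropic receptor found at presynaptic terminals in mammals, was at 947 and 885 CPM in PRDM13 cells, against 296 and 243 CPM in comparison cells (1.80 ± 0.12, SE). GRIK2, a kainate receptor subunit, was at 774 and 1104 CPM, against 254 and 294 CPM (1.79 ± 0.12). These genes also stand on the list of bipolar cell markers, of which CHTF18 fell.

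Of 14 receptors for amines and peptides tested, 3 rose and 3 fell, with a median log2 fold change of -0.24. The serotonin receptor HTR7 was at 550 and 725 CPM in PRDM13 cells, against 209 and 239 CPM in comparison cells. The galanin receptor GALR1 was at 13.1 and 6.5 CPM, against 1.8 and 1.1 CPM. CRHR2.2, a copy of a receptor for corticotropin-releasing hormone peptides, was at 16.6 and 45.7 CPM in PRDM13 cells, against 291 and 268 CPM in comparison cells (-3.01 ± 0.16). It was detected in 13.5% of members and 56.3% of comparison cells, and in 5.5% and 33.4% after thinning. CCKAR, the cholecystokinin A receptor, and HTR4, another serotonin receptor, also fell.

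In the lists of transcription factors, TSHZ1 was the one gene called higher. TSHZ1, a zinc finger homeobox factor, was at 1337 and 1332 CPM in PRDM13 cells, against 345 and 302 CPM in comparison cells (2.08 ± 0.12, SE). It was detected in 75.8% of members, 30.3% of comparison cells and 22.4% of glia-like cells after thinning. It was the only one of 13 homeobox and SOX factors tested to be called higher, and 2 were called lower, PAX2 and LHX1. LHX1 had 0 UMIs in members and 7.2 and 6.5 CPM in comparison cells, at least 5.38-fold lower when 3 UMIs over both libraries of members are taken as the floor. The list median was -0.37.

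Of 14 genes fixed as the PRDM13 circuit from work in mouse, 5 had a row and 2 were tested, BHLHE22 and PAX2, and both fell. BHLHE22, a bHLH factor of amacrine and other neurons in mouse, was at 7.1 and 4.6 CPM in PRDM13 cells, against 36.9 and 29.8 CPM in comparison cells (-2.53). PAX2 was at 3.6 and 0.65 CPM in PRDM13 cells, against 20.8 and 12.4 CPM. Few cells of either group had a UMI of PAX2: 1.38% of members and 2.05% of comparison cells. After thinning these shares were 0.69% and 0.85%. Of the other PRDM genes, 4 were tested and 0 were called, among them PRDM8, at 198 and 170 CPM in members, against 196 and 152 CPM in comparison cells. None of the 4 had an unadjusted p under 0.05, and DESeq2 called 0. FOXP2, a forkhead factor, had a log2 fold change of -0.04, and 0 of 3 forkhead factors tested were called by edgeR or DESeq2, with 1 at an unadjusted p under 0.05. The nuclear receptor ESRRG fell to 85.6 and 98.5 CPM in PRDM13 cells, against 376 and 351 CPM in comparison cells.

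Genes for GABA handling were measured for SLC32A1, ABAT and ALDH5A1. SLC32A1, the vesicular GABA transporter, was called higher at 44.0 and 47.6 CPM in PRDM13 cells, against 21.2 and 20.2 CPM in comparison cells (1.19 ± 0.19, SE). A UMI of it was present in 46 of 289 members (15.9%, exact interval 11.9 to 20.7) and in 772 of 6741 comparison cells (11.5%, 10.7 to 12.2). One group of 45 members, described below as cluster 3, held 76.4% of its UMIs in members. Without that group SLC32A1 was at 6.4 and 15.9 CPM in members, under both comparison values. ABAT, which breaks down GABA, was at 321 and 318 CPM, against 206 and 197 CPM, which is under the 2-fold limit, and ALDH5A1, the next enzyme, was at 15.4 and 10.4 CPM, against 8.4 and 8.0 CPM (adjusted p = 0.20, edgeR).

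Among channels and adhesion molecules, single genes were called in both directions. Of 13 potassium channel genes tested, KCNAB1 and KCNT1 rose and KCNH1 and KCNJ11 fell. KCNAB1, an auxiliary subunit of voltage-gated channels, was at 98.6 and 71.8 CPM in PRDM13 cells, against 18.8 and 23.8 CPM in comparison cells. KCNH1, a voltage-gated channel, was at 63.0 and 89.4 CPM in PRDM13 cells, against 195 and 161 CPM. Of 12 calcium channel genes, CACNG2 rose and CACNA1D.1 fell, the latter at 26.1 and 54.2 CPM, against 147 and 104 CPM. Against the 6 other gates CACNA1D.1 had a log2 fold change of -0.94, under the 2-fold limit. The other copy, CACNA1D.2, went the other way, at 1006 and 872 CPM, against 515 and 460 CPM (0.97, under the limit). Of 17 adhesion and guidance genes, DSCAM and PCDH9 rose and SDK2 and CDH23 fell. Among all genes tested 2.79% were called higher and 7.41% lower, so counts this small say little about a list.

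DSCAM, an immunoglobulin-family adhesion molecule that spaces neurites of like cells in the mouse retina, was at 2601 and 2027 CPM in PRDM13 cells, against 912 and 759 CPM in comparison cells. It was detected in 98.6% of members and 58.6% of comparison cells, and in 95.8% and 47.6% after thinning. SDK2, a related molecule of synaptic layering, was at 160 and 187 CPM in PRDM13 cells, against 402 and 341 CPM. Of 16 genes of synaptic release 4 fell with edgeR, STXBP6, SYT13, CPLX3 and CPLX4, and DESeq2 called 2 lower. CPLX3 and CPLX4 were at 8.5 CPM or less in members. Against the 6 other gates their log2 fold changes were 0.12 and 0.59, not called. None was called higher by edgeR or DESeq2, and 3 were higher at an unadjusted p under 0.05. Of 18 genes of cyclic nucleotide signalling 1 fell, PDE10A, at 66.5 and 112 CPM, against 217 and 206 CPM. Over all genes tested 7.41% were called lower, so this count is no result about the list.

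Without the library as a term, 18 of the genes listed lost the call (adjusted p from 0.055 to 0.56, edgeR). Among those named here these were CHRNG, CHTF18, PAX2, GALR1, KCNJ11, CACNA1D.1, CPLX3, CPLX4 and PDE10A, and SLC17A6, BEGAIN, HES1, TYRP1, DCT, C1QTNF3, ATP1B3.1 and MSTRG.6070 below. The last on this list was HSPA12B, a heat shock protein.

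Genes of ribosomes and respiration were lower without passing the fold limit. The 63 genes of cytosolic ribosomal proteins had a median log2 fold change of -0.33 and 0 were called by edgeR or DESeq2, with 50 lower at an unadjusted p under 0.05. Their summed level was 23208 and 25181 CPM in PRDM13 cells, against 30121 and 30996 CPM in comparison cells. The 54 genes of oxidative phosphorylation had a median of -0.49, with sums of 5534 and 7312 CPM, against 8836 and 10286 CPM. None was called by edgeR or DESeq2, and 44 were lower at an unadjusted p under 0.05. Both sums were lower in each library of members than in either library of the comparison. Against the 6 other gates the medians were -0.14 for ribosomal proteins and -0.47 for oxidative phosphorylation. Cluster 3 of the members went the other way in genes of both lists. With both libraries summed, RPL14 was at 525 CPM in it, against 395 CPM in comparison cells, and COX6C at 383 CPM, against 313 CPM.

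Other named genes of large fold had varied roles. SNTG2, a syntrophin that links membrane proteins to the dystrophin complex, was at 1045 and 814 CPM in PRDM13 cells, against 265 and 167 CPM in comparison cells. TRHDE, an enzyme that inactivates thyrotropin-releasing hormone, was at 2182 and 1918 CPM, against 591 and 457 CPM. MYRIP, which joins secretory granules to myosin, was at 115 and 107 CPM, against 16.6 and 19.4 CPM, and after thinning had a UMI in 18.3% of members, 3.8% of comparison cells and 10.0% of glia-like cells (42.9%, 9.8% and 50.7% before). PTCHD1, PRTG, CYP26B1.1, LRRC75A, PLA2G3, MFSD4A and ISM1 completed the 15. MFSD4A, like SLC32A1, had most of its UMIs in members (84.6%) in cluster 3, and stood without it at 2.6 and 4.5 CPM, against 5.5 and 6.4 CPM. With SLC32A1-positive cells left out of both groups its log2 fold change was 1.06 and its adjusted p 0.059 (edgeR), no longer called.

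Of the 9 named genes of largest fold among those lower, LTK, CALB2.1, SLC35F4, TRIM46, CCDC141 and CPM were detected in at most 1.0% of glia-like cells thinned to 2000 UMIs. CALB2.1, a copy of the calcium-binding protein calretinin, was at 3.6 and 3.3 CPM in PRDM13 cells, against 42.6 and 50.7 CPM in comparison cells. LTK, a receptor tyrosine kinase, was at 2.4 and 1.3 CPM, against 31.6 and 29.4 CPM. TRIM46, an organiser of the axon initial segment in mammals, was at 1.2 and 2.6 CPM, against 22.03 and 24.8 CPM.

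The other 3, G6PC, C1QTNF3 and ATP1B3.1, were found in over 50% of glia-like cells thinned to 2000 UMIs (68.2%, 51.7% and 95.0%). G6PC, the catalytic subunit of glucose-6-phosphatase, was at 1.2 and 1.3 CPM in PRDM13 cells, against 25.8 and 53.5 CPM in comparison cells, and at 883 and 578 CPM in glia-like cells. C1QTNF3 and ATP1B3.1 lost the call without the library as a term (adjusted p = 0.15 and 0.11, edgeR). The glial markers HES1 and GLUL summed to 125 and 140 CPM in members, against 153 and 286 CPM in comparison cells. Their part in these 3 results was not tested.

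Markers of other cell types differed in both directions. The 3 bipolar cell genes summed to 1723 and 1992 CPM in PRDM13 cells, against 561 and 556 CPM in comparison cells, through GRM8 and GRIK2. The 9 matched photoreceptor genes summed to 152 and 181 CPM in PRDM13 cells, against 263 and 292 CPM in comparison cells, with 2 of 8 tested lower, and RBP3 was at 0. Most of this sum was ARRB1, which was not called, at 137 and 164 CPM, against 228 and 249 CPM. The horizontal cell markers summed to 93.9 and 140 CPM, against 211 and 203 CPM, mostly through BARHL1, which was not called, at 85.6 and 105 CPM, against 187 and 168 CPM. Of the amacrine list 2 of 12 genes were matched, SLC32A1, called higher, and BEGAIN, called lower at 13.1 and 116 CPM in members, against 292 and 379 CPM. Of the ganglion cell list 3 of 16 genes were matched, and RBPMS, limited to 1 UMI by the gate, was left out of the list. POU4F2 was at 0 in members, against 0.61 and 0.41 CPM in comparison cells, and was not tested. ISL1 was at 0 and 0.65 CPM, against 1.9 and 2.1 CPM, and was not called. SLC17A6, a vesicular glutamate transporter, was at 3.6 and 33.9 CPM, against 42.6 and 62.5 CPM. Pigment epithelium markers summed to 17.8 and 13.0 CPM in members, against 6.8 and 3.0 CPM, with DCT and TYRP1 higher. PMEL and TYR were at 0 in members and at 1.7 CPM or less in comparison cells. The markers of blood, vessels and dividing cells summed to under 3 CPM each in both libraries of members. The part of other cell types in the results was not tested.

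Among genes without a symbol, MSTRG.9625 and MSTRG.5371 had the largest folds under the rule for named genes. MSTRG.9625 was at 1485 and 1142 CPM in PRDM13 cells, against 30.4 and 68.5 CPM in comparison cells (4.83 ± 0.13, SE), and was detected in 61.6% of members and 8.6% of comparison cells, and in 54.0% and 5.0% after thinning. MSTRG.5371 was at 12180 and 13636 CPM, against 423 and 994 CPM (4.34 ± 0.14), in 63.0% and 43.2% of cells, and in 46.0% and 21.7% after thinning. Among genes lower, LOC116943571 had 0 UMIs in members and 32.7 and 24.5 CPM in comparison cells, at least 21.9-fold lower over both libraries, though only 1.1% of comparison cells had a UMI. Cells with 1 UMI of PRDM13, just outside the gate, held 120 and 86.1 CPM of it, above both comparison values. Its level thus did not fall steadily with PRDM13. MSTRG.6070 was at 0 and 0.65 CPM, against 56.1 and 17.2 CPM.

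Against the mean of the 6 gates built the same way on TMEM121, PDE11A, NR4A2, SOHLH2, RXFP1 and RBPMS, CA8, CHRM4, DRD2, TSHZ1, SNTG2 and TRHDE were again higher. Of 11701 genes tested with edgeR, 397 were called higher (3.39%) and 344 lower (2.94%), with a median log2 fold change of -0.01 over all genes. The comparisons share the PRDM13 cells, so they are not independent. The 15 genes named higher above were each called here, with log2 fold changes from 2.04 to 4.46 and adjusted p up to 0.00024, and 8 of the 9 named lower were called lower. CPM, the gene of carboxypeptidase M, was not (adjusted p = 0.19, edgeR). Among list genes named lower above, BEGAIN, SLC17A6, LHX1, HTR4, CCKAR, CHTF18, CHRNG and CDH23 were not called here. BEGAIN had a log2 fold change of -1.01 (adjusted p = 0.18, edgeR) and SLC17A6 one of -0.23. KCNT1, named higher above, was at 0.86, under the 2-fold limit.

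**Figure D2:**
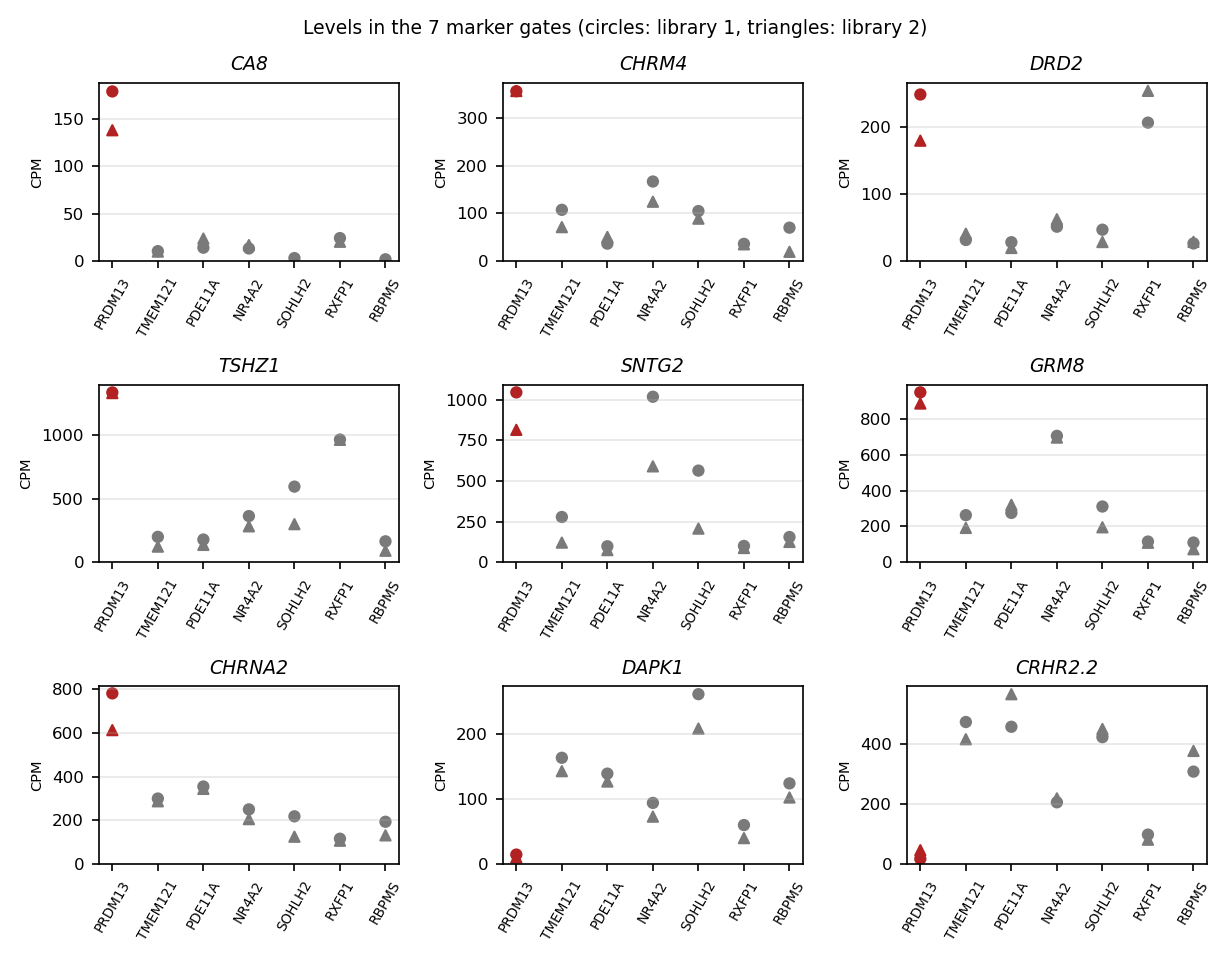
Levels (CPM of UMIs summed per library) of 9 genes in the PRDM13 gate, in red, and the 6 other marker gates, in grey, with circles for library 1 and triangles for library 2. CA8, CHRM4, TSHZ1, GRM8 and CHRNA2 were highest in the PRDM13 gate, DRD2 overlapped with the RXFP1 gate and SNTG2 with the NR4A2 gate, and DAPK1 and CRHR2.2 were lowest in the PRDM13 gate.

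CA8 was at most 24.1 CPM in any library of another gate, in the RXFP1 gate, and the log2 fold change was 4.46 ± 0.17 (SE). CHRM4 reached 167 CPM in the NR4A2 gate and 107 CPM in the TMEM121 gate, under both PRDM13 libraries. For 10 of the 15 genes both libraries of PRDM13 cells lay above every library of the 6 other gates. The exceptions were CYP26B1.1, DRD2, SNTG2, PLA2G3 and ISM1. For PLA2G3, at 26.1 to 30.9 CPM in PRDM13 cells, 1 gate lay wholly above them, and the RXFP1 gate reached 47.7 CPM. PRTG and LRRC75A cleared the other gates narrowly. Their lower PRDM13 library was at 50.9 and 154 CPM, against at most 49.5 and 152 CPM in another gate.

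DRD2 was shared with the RXFP1 gate. It was at 248 and 179 CPM in PRDM13 cells, against 206 and 254 CPM in RXFP1 cells, so the 2 gates overlapped, while the 5 other gates lay between 19.2 and 62.1 CPM. TSHZ1 was next highest in RXFP1 cells, at 966 and 964 CPM, and the other gates held at most 596 CPM. SNTG2 was at 1045 and 814 CPM in PRDM13 cells, against 1018 and 590 CPM in NR4A2 cells, and overlapped too. GRM8 reached 705 CPM in NR4A2 cells, below both PRDM13 libraries. DSCAM reached 2328 CPM in PDE11A cells, between the PRDM13 libraries at 2601 and 2027 CPM. CACNG2 reached 634 CPM in SOHLH2 cells, above both PRDM13 libraries at 520 and 408 CPM.

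The RXFP1 gate is also the one in which PRDM13 itself was highest outside the members, at 33.3 and 37.0 CPM, although those cells were limited to 1 UMI of it. In the NR4A2 gate it was at 20.4 and 12.6 CPM, and in the other gates at 5.1 CPM or below. In the 488 cells set aside for carrying PRDM13 with another marker, DRD2 was at 296 and 323 CPM, above both libraries of members, and TSHZ1 at 1331 and 1137 CPM, against 1337 and 1332 CPM in members. CHRM4, at 135 and 105 CPM, MSTRG.9625, at 370 and 251 CPM, and CHRNA2, at 270 and 232 CPM, were below both libraries of members there. Of the 15 genes named higher, TRHDE, ISM1, MFSD4A and CYP26B1.1 were not above comparison cells in both libraries there, and the others were. TRHDE was at 559 and 468 CPM in the cells set aside, against 591 and 457 CPM in comparison cells.

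Below the other gates, DAPK1, a death-associated protein kinase, was at 14.3 and 9.8 CPM in PRDM13 cells, against 39.6 CPM or more in each library of the 6 gates (-3.26 ± 0.18, SE). SLC35F4, LTK, TRIM46 and CCDC141 completed the 5 genes of largest fold lower, and for each of the 5 both PRDM13 libraries were under every library of every other gate. CRHR2.2 was likewise under all 6 gates, which ran from 80.8 to 568 CPM. Of the 9 genes named lower against other GAD1-positive cells, 4 were under every library of the 6 gates. The exceptions were CALB2.1, G6PC, C1QTNF3, ATP1B3.1 and the gene CPM, each at 0 CPM in a library of another gate.

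The named genes differed in how their levels followed the number of PRDM13 UMIs. Cells with 1 UMI of PRDM13, which the gate left out, stood between comparison cells and members in both libraries for 15 of the 15 genes named higher and 7 of the 9 named lower. These genes were picked for their folds between those same groups, and the share over all genes was not counted, so this order is a description only. CA8 was at 9.8 and 9.0 CPM in cells with 0 UMIs, 55.7 and 84.4 CPM with 1, 116 and 100 CPM with 2, 168 and 183 CPM with 3 or 4, and 277 and 140 CPM with 5 or more. DRD2 was at 42.5 and 45.4, 144 and 103, 254 and 174, 253 and 199, and 236 and 152 CPM in the same 5 classes. Among members with 2, 3 to 4, and 5 or more UMIs, DRD2 stayed between 152 and 254 CPM and SNTG2 between 762 and 1073 CPM. LRRC75A was higher in each class than in the one before in both libraries, at 48.9 and 52.1, 82.9 and 111, 141 and 167, 143 and 252, and 186 and 288 CPM, and CHRM4 was highest in the top class, at 459 and 515 CPM. The classes above 0 were limited in the 6 other markers and the class at 0 was not, and no test was run across them.

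**Figure D3:**
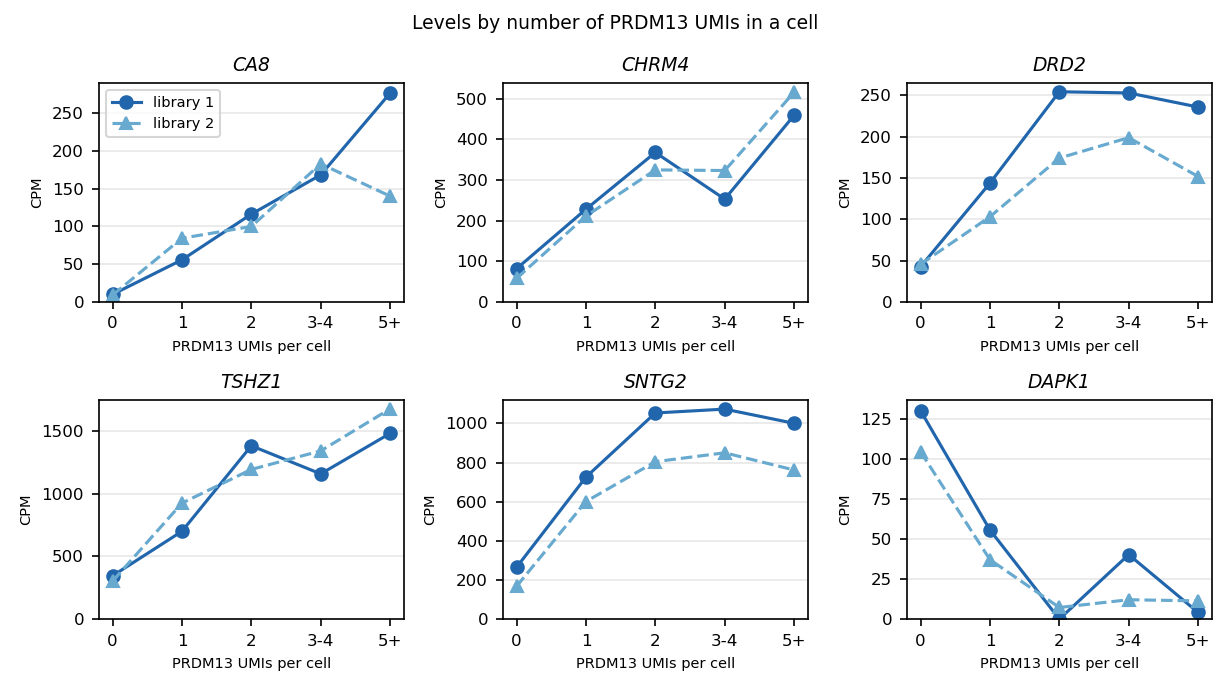
Levels (CPM of UMIs summed per library) of 6 genes in GAD1-positive cells with 0, 1, 2, 3 to 4 and 5 or more UMIs of PRDM13, with a solid line for library 1 and a dashed line for library 2. DRD2 and SNTG2 level off from 2 UMIs, CA8 is at 277 and 140 CPM in the highest class, and DAPK1 is lowest in cells with 2 or more UMIs.

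Clustered without the genes of the gate, the 289 members fell into 8 groups of 58, 51, 45, 34, 33, 28, 26 and 14 cells, each with cells of both libraries. The groups are described by their leading genes in both libraries, without a test. The number was 7 at resolution 0.5 and 8 at 1.5. Cluster 8 had 11 cells of replicate 1 and 3 of replicate 2. Median depth was 3612 UMIs in cluster 3 and 11130 in cluster 4.

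Cluster 1 was led by GALNTL6, TRHDE and HMCN1 among named genes, and cluster 6 by CYP26B1.1, the enzyme that degrades retinoic acid, PDE2A and CDH23. MSTRG.5371 took 38628 and 36296 CPM in these clusters, against 1748 CPM or less in the 6 others. PRDM8, not called over all members, was at 386 and 469 CPM in clusters 1 and 6, and at 99.8 CPM or less in the 6 others. Comparison cells held 169 CPM of PRDM8. CYP26B1.1 was at 462 CPM in cluster 6, whose 28 cells held 72.8% of the members' UMIs of this gene, and at most 116 CPM elsewhere.

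Cluster 2 was led by CACNA1D.1, MSTN and CA8, and cluster 4 by KCND1, a voltage-gated potassium channel, NCKAP5 and RAB15. CA8 was at 235, 281 and 288 CPM in clusters 1, 2 and 4, and at 0 in clusters 6 and 7. Cluster 5 was led by PDZRN3, PRIMA1, which anchors acetylcholinesterase, and BARHL1, a homeobox factor, at 298 CPM against 175 CPM in comparison cells. Cluster 7 was led by BRINP1, the serotonin receptor HTR2A and STK10, and cluster 8 by ABTB2, EPHX2 and TSPAN18 (MSTRG.2173).

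Cluster 3 stood apart from the rest. It was led by NECAB1, a neuronal calcium-binding protein, SLC32A1 and MFSD4A, with SLC32A1 at 306 CPM, and at most 34.4 CPM in every other cluster. SLC17A6 was at 30.8 and 181 CPM in it by library, against 42.6 and 62.5 CPM in comparison cells, so its direction differed between the libraries. GAD1 was lowest of the 8 clusters at 572 CPM, and PRDM13 was at 528 CPM. TSHZ1, CHRM4 and SNTG2 were at 317, 51.02 and 186 CPM with both libraries summed, against 318, 66.9 and 205 CPM in comparison cells. In replicate 2 alone TSHZ1 and SNTG2 were above the comparison, TSHZ1 at 349 CPM, against 302 CPM, and SNTG2 at 172 CPM, against 167 CPM. DRD2, at 157 CPM, was above the comparison in both libraries. SLC32A1 was present in cluster 3 of both libraries, at 492 and 248 CPM.

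**Figure D4:**
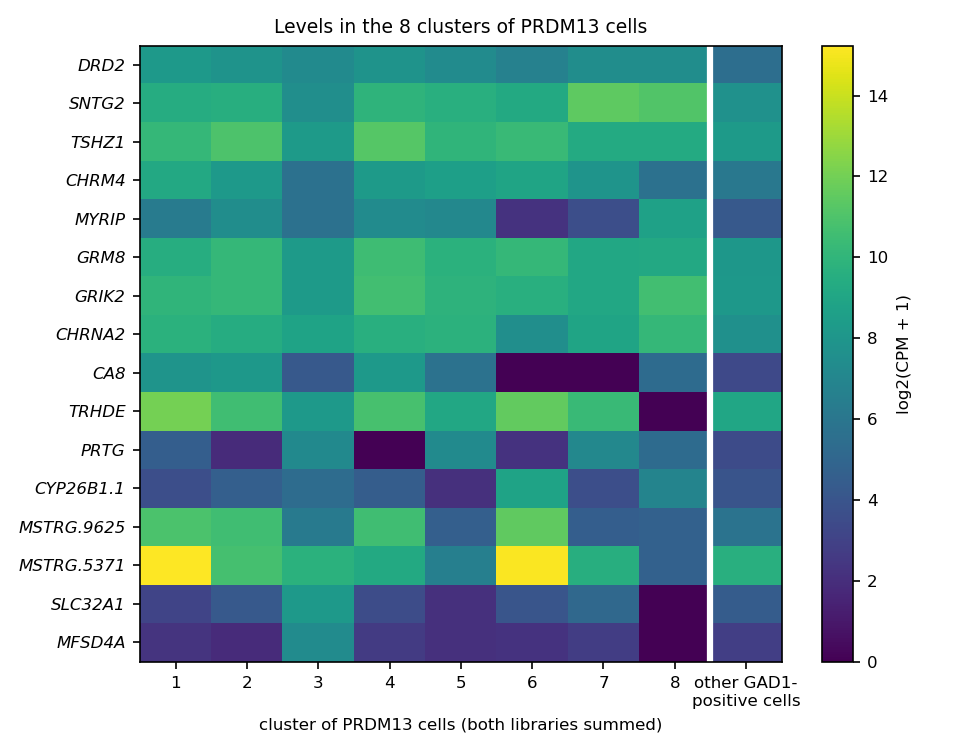
Levels, as log2(CPM + 1) with both libraries summed, of 16 genes in the 8 clusters of PRDM13 cells and, right of the white line, in other GAD1-positive cells. DRD2 is above the comparison in every cluster, MSTRG.5371 is highest in clusters 1 and 6, and SLC32A1 and MFSD4A are highest in cluster 3.

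Across clusters, DRD2 was the one of the 15 genes at more than 2 times the comparison level in all 8, from 101 to 287 CPM, against 44.3 CPM in comparison cells. SNTG2 passed that mark in 7 clusters, and CHRM4, TSHZ1, MYRIP and ISM1 in 6. The 15 were picked for the largest rises over these same cells, so these counts of clusters are a description only. TRHDE was at 0 in cluster 8 and at 4328 CPM in cluster 1. The 9 genes named as lower were at less than 1/2 of the comparison level in each of the 8 clusters. They were picked for the largest falls over these same cells and have few UMIs in them, so this was largely set by the choice. Outside the 15, GRM8 and CHRNA2 passed the 2-fold mark in 7 clusters and GRIK2 and DSCAM in 6. They, too, were named for their folds over these cells.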

How the data were processed

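The authors dissociated retinas and made 10x Genomics 3' libraries, 1 per replicate. They aligned the reads to a reference built from the lamprey genome and a retinal transcriptome and deposited, per library, raw UMI counts per gene and barcode called as a cell. The deposited matrix headers name Cell Ranger 7.0.1, and the submitters' processing notes name Cell Ranger 6.0.1. No normalization or cell filter beyond the cell calling was applied to the deposited counts. The members, lists and comparisons were chosen with earlier results of these data known. Gene symbols came from a supplementary list of the study (1998 genes), the deposited list (5456) and a RefSeq table of another assembly (559), used for names only. No coordinates or sequences were used.

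UMIs were summed per library and cell group, normalized by TMM and tested in R 4.3.3 by the edgeR 4.0.16 functions glmQLFit and glmQLFTest after filterByExpr, with library as a term because both groups of cells come from the same 2 libraries. This design is the pairing: a library is 1 sample, and a group's sum in it shares its dissociation, droplets and sequencing. Called genes had a Benjamini-Hochberg adjusted p under 0.05 and a 2-fold difference. The 12 genes of the gate were left out of every test. The standard error is the log2 fold change divided by the square root of F. Named genes were those called with a symbol, in 1 direction in both libraries and with at least 20 CPM in the higher group: the 15 and 10 of largest fold, 10 and 5 against the 6 gates, the list members of largest fold, the 3 leading genes of each cluster, and 2 genes without a symbol in each direction. A few genes that met this rule or stood on a list are not reported here, and were left out of the counts of named and listed genes. HTR7, HTR4, CCKAR, CHRNA5, KCNH1, SDK2 and other list members outside the leading 4 were named after their values were seen. Alternatives were thinning to 2000 UMIs, 4000 UMIs, 3 UMIs of PRDM13, other limits on the comparison, DESeq2 1.42.0, no filter, no library term and each library alone. Clustering used Python 3.11.15 with igraph 0.11.9 and leidenalg 0.10.2 (1500 variable genes, 20 components, 15 neighbours). The tests and the clustering were tested on simulated data.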

Additional observations from a re-analysis of the deposited data

How the results depend on the processing

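Both groups of cells come from the same libraries, so the replicate block (library as a term) is part of the main fit. Without the replicate block the comparison with other GAD1-positive cells called 232 genes higher and 321 lower, in place of 415 and 1102, and 232 and 319 of these were shared. Thinning every cell to 2000 UMIs gave 270 and 556, and DESeq2 276 and 514, of which 276 and 511 were shared. Against the 6 other gates, thinning gave 243 and 191 in place of 397 and 344. Every other setting stayed within 1.5 times these counts. The share of PRDM13 cells, 3.57%, was 3.86% with at least 4000 UMIs, 3.86% with the study's limits for ganglion cells, 7.02% with at least 1 UMI of PRDM13, 1.94% with at least 3 and 1.78% when cells were thinned before the gate. Without replicate 1 or 2 it was 3.55% to 3.62%. Leaving out a library leaves no residual degrees of freedom, so those fits gave folds and no calls.

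Alternatives on the other markers and on SLC32A1 were chosen after seeing the data. Members with any number of UMIs of the 6 other markers shared 198 of the 415 genes higher, and leaving out SLC32A1-positive cells shared 384. Single genes changed direction: SALL3 (-1.79) with at least 3 UMIs of PRDM13, CHRNG (-2.20 to 0.56 without replicate 1 or 2), and TYR (1.52) and KCNJ11 (0.23) with any number of UMIs of the other markers. The cause was not tested. Of the 24979 genes, 16966 had no symbol, and low genes rest on few UMIs: members held 2374307 UMIs in all.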
